A study of Mus musculus with 9 samples.

Results

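Motile cilia of the airway beat mucus out of the lung, and the genes described here encode parts of that machine and of the transport that builds it. They are the 47 protein-coding genes whose symbols begin with Dnah, Dnal, Dnaic, Rsph, Tekt, Cfap, Spef or Ift followed by a digit, taken from 23944 genes measured in mouse lung, 18019 of them protein-coding. The rule used gene names and no measured value. No row of the tables carries a symbol that begins with Cfap followed by a digit, so that family is described through other symbols further on. By role the 47 genes comprise 5 heavy chains of outer dynein arms, 9 of inner arms, 1 heavy chain without an assigned arm (Dnah14), 4 dynein intermediate or light chains, 7 radial spoke genes, 5 tektins, 2 Spef genes, 3 genes of the transport complex IFT-A and 11 of the complex IFT-B.

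RNA of whole left lungs was sequenced in 3 groups of 3 libraries, all from adult wild-type mice. Shock grafts were C57BL/6 left lungs whose donors went through 4 h of hypovolemic shock at a mean arterial pressure of 15 ± 5 mmHg and 20 h of recovery, after which the lung was stored for 24 h at 0 °C, transplanted into a Balb/C mouse and reperfused for 2 h. Cold-ischemia grafts had the same storage, transplantation and reperfusion without donor shock. Naive lungs were C57BL/6 left lungs without transplantation. A graft was perfused by the blood of the recipient, so its library can hold RNA of recipient cells. Total counts ran from 18913487 reads in naive replicate 2 to 34986276 in naive replicate 3, and the 47 genes together held 143264 reads over the 9 libraries.

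An axoneme is a ring of doublet microtubules around a central pair. Outer and inner dynein arms, each built on heavy chain motors with intermediate and light chains, slide neighbouring doublets, and radial spokes relay control from the central pair to the arms. Tektins are filaments inside the doublet wall. Intraflagellar transport carries these parts along the cilium, with IFT-B trains moving towards the tip under kinesin and IFT-A needed for the way back under cytoplasmic dynein. Motile axonemes of the lung belong to multiciliated airway cells, whereas IFT genes also serve the primary cilium of many other cell types.

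Each library is given the group of its title. The titles and the authors' deposited tables put 2 graft libraries in opposite groups, cold-ischemia replicate 2 and shock replicate 3, and comparisons of either graft group are given by the titles, followed by the counts under the deposited grouping. A further record, outside this series, is cited in the labels of all 3 naive lungs and of 0 grafts, and batch therefore cannot be told apart from group wherever naive lungs are compared. On principal components of all genes, naive lungs lay apart from all grafts on the first component, with 64.3% of the variance, and shock replicate 2 lay apart from the other grafts on the next, with 11.5%. Defining markers of multiciliated cells were present in every library. The 12 markers summed to 296, 329 and 462 CPM (reads scaled to library size, with library sizes adjusted by the TMM method) in shock grafts, 428, 335 and 407 CPM in cold-ischemia grafts, and 494, 421 and 460 CPM in naive lungs.

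Levels can be compared between genes only per length, and the deposited FPKM values (reads scaled by gene length and library total) give that order. Transport genes stood at the top of it. Ift20, an IFT-B subunit also found at the Golgi, averaged 25.5 ± 3.40 FPKM in grafts (SD, n = 6) and 35.1 ± 2.06 FPKM in naive lungs (SD, n = 3). Ift43, an IFT-A subunit, averaged 25.4 ± 6.37 FPKM in grafts and 34.9 ± 4.75 FPKM in naive lungs, so its level and that of Ift20 did not differ beyond their spread. The light chain gene Dnal4 followed at 10.6 ± 2.20 FPKM in grafts and 20.4 ± 1.61 FPKM in naive lungs. Rsph1, a radial spoke head gene, averaged 10.9 ± 3.89 FPKM in grafts and 16.3 ± 3.73 FPKM in naive lungs, and Ift22, a small GTPase of IFT-B, averaged 10.3 ± 1.42 FPKM in grafts and 16.3 ± 1.74 FPKM in naive lungs. The SDs of those 3 genes overlapped in grafts.

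Heavy chains lay at the other end of the order. Dnah5, the main outer arm heavy chain of airway cilia, averaged 2.36 ± 0.603 FPKM in grafts and 2.84 ± 0.518 FPKM in naive lungs, and Dnah9, its distal partner, averaged 1.35 ± 0.422 FPKM in grafts and 1.71 ± 0.228 FPKM in naive lungs. Of the 47 genes, 6 averaged over 10 FPKM across the 9 libraries and 12 averaged under 1 FPKM, among them Dnah17 and Dnah8. A pair of genes had almost no reads. Dnah14 had 1 read in shock replicate 2 and Rsph6a, a radial spoke gene of sperm, had 3 reads in shock replicate 3, with none in any other library, and neither passed the filter on low counts. For Dnah14 the deposited gene covers only 1986 bases from chr1:181738988, beside 15630 bases for Dnah5. The window around its RefSeq start lies upstream, at chr1:181576343-181576642. Its count therefore cannot show whether the rest of the gene is silent. The other 45 genes had reads in all 9 libraries and were tested.

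Grafts were first set against naive lungs for the whole set. With edgeR's quasi-likelihood test over 15834 genes, 1 of the 45 tested ciliary genes was higher in grafts and 7 were lower, at an adjusted p under 0.05. Over all genes tested, 41.8% were called, 22.1% higher and 19.7% lower, so the share of ciliary genes called was smaller than the share over all genes. The gene that rose was Dnah17, a heavy chain, and those that fell were Dnal1, Dnal4, Spef1, Ift52, Ift172, Ift80 and Ift46. The median log2 fold change of the 45 genes was -0.15, beside -0.05 over all genes tested. All 6 grafts lay above all naive lungs for 1 ciliary gene, where 20.9% of all genes did so, and below all naive lungs for 9, where 20.0% did.

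**Figure D1:**
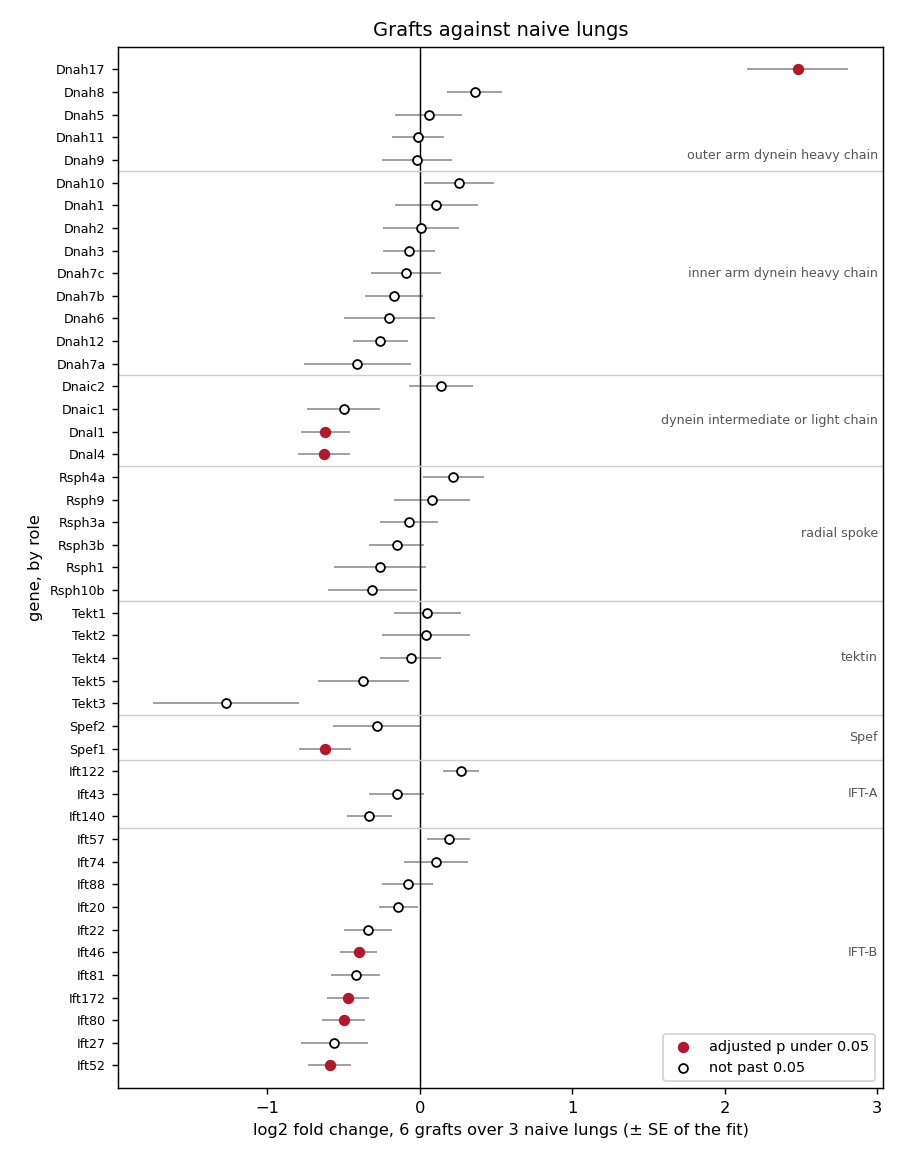
Log2 fold change of each tested ciliary gene, 6 grafts over 3 naive lungs (horizontal axis, ± SE of the edgeR fit), with genes ordered by role down the page. Filled red points passed an adjusted p of 0.05 and open points did not. Dnah17 stands at 2.48 at the top, and the 7 lower genes lie between -0.63 and -0.40 among the dynein light chains, Spef1 and IFT-B.

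In whole-lung RNA, fewer cells of a type and less RNA per cell cannot be told apart, and this holds for every value given here. How a library is scaled also moves the count of lower genes. TMM factors were 0.9 to 0.965 in grafts and 1.131 to 1.183 in naive lungs. With library sizes taken as total counts, the median log2 fold change of all genes moved to -0.37 and that of the ciliary genes to -0.47, and with upper-quartile scaling these medians were -0.25 and -0.35. The ciliary median lay 0.1 below the median of all genes under each of the 4 scalings tried, on the log2 scale. A change of scaling moves all genes by about the same amount, so this gap was bound to stay nearly the same. The number of ciliary genes called lower was 16 with total counts (35.6% of the 45, beside 39.6% of all genes) and 14 with upper-quartile scaling (31.1%, beside 31.8%). Dnah17 was the only ciliary gene called higher under each of the 4 scalings. The deposited FPKM, which are scaled by total counts, averaged lower in grafts for 43 of the 47 genes, and for 69.5% of all genes tested.

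**Figure D2:**
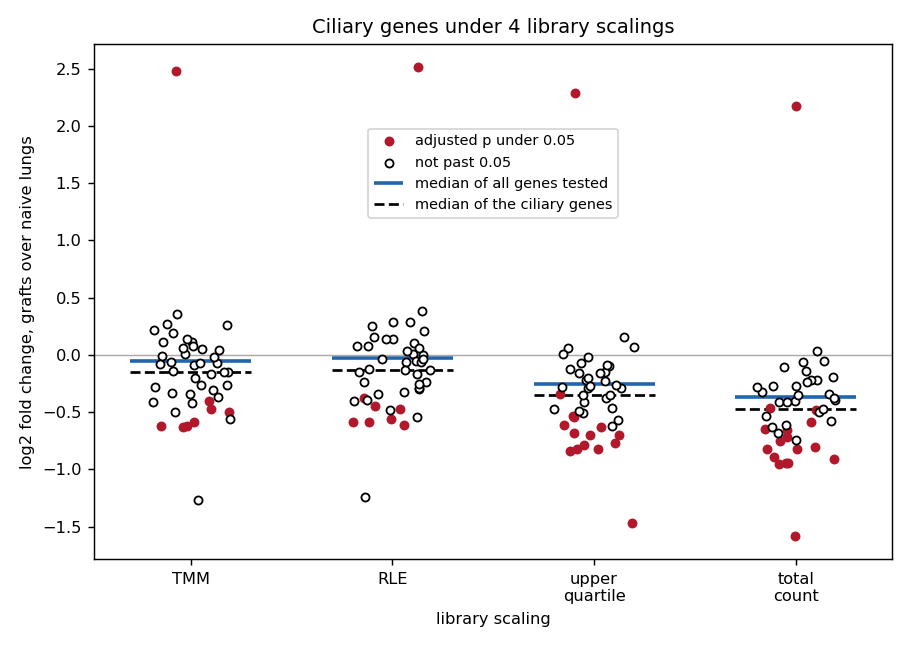
Log2 fold change of the 45 ciliary genes, grafts over naive lungs (vertical axis), under 4 library scalings. Points are genes, red where the adjusted p was under 0.05, the blue line is the median of all genes tested and the dashed line the median of the ciliary genes. Both medians move down together, to -0.37 and -0.47 with total counts, while Dnah17 stays above 2.

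The heavy chain genes showed 1 rise and no fall among the 14 tested, where 22.1% of all genes were called higher and 19.7% lower. Dnah17, an outer arm heavy chain known mainly from sperm flagella, had 5.82, 6.13 and 6.51 CPM in shock grafts, 3.45, 7.17 and 3.88 CPM in cold-ischemia grafts, and 0.916, 0.633 and 1.32 CPM in naive lungs. Every graft lay above every naive lung. The fitted fold was 5.59, with a log2 fold change of 2.48 ± 0.33 (SE) and an adjusted p of 0.00019 by edgeR. These levels rest on 741 reads in the 6 grafts and 98 reads in the 3 naive lungs, and on the length scale Dnah17 stayed low, at 0.340 ± 0.0933 FPKM in grafts and 0.0737 ± 0.0249 FPKM in naive lungs. It passed the test in all 19 settings computed, with log2 fold changes of 2.17 to 2.79.

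Dnah17 lies on the minus strand at chr11:118021723-118129219 of mm10. In the GENCODE M21 annotation its exons share 93 bases with Pgs1 and 256 bases with the antisense gene Gm11738, both on the opposite strand, and the labels do not state whether strand was kept. Pgs1, a phospholipid synthesis gene, was higher by 0.60 ± 0.13 on the log2 scale (adjusted p = 0.00456), at a mean of 85.4 CPM in grafts and 56.1 CPM in naive lungs, a call lost with total-count scaling (0.27, adjusted p = 0.0864 by edgeR). Gm11738 was higher by 3.84 ± 0.83 (adjusted p = 0.0039), at means of 0.390 CPM in grafts and 0.0246 CPM in naive lungs. The part of reads from these neighbours in the Dnah17 count was not tested.

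Other cell types were set beside Dnah17. Neutrophil markers rose for 8 of 8 genes, where 22.1% of all genes tested were called higher. Their sum was 2550, 2880 and 1470 CPM in shock grafts and 974, 1130 and 1900 CPM in cold-ischemia grafts. In naive lungs it was 49.8 to 79.3 CPM. Every graft lay above every naive lung in both. The 6 grafts did not stand in the same order for both. Cold-ischemia replicate 1 had the lowest Dnah17 level and the lowest neutrophil sum. Shock replicates 1 and 2 had the highest sums and Dnah17 levels of 5.82 and 6.13 CPM. Cold-ischemia replicate 2, with the highest Dnah17 level, had a sum of 1130 CPM. Shock replicate 3 had 6.51 CPM of Dnah17 and a sum of 1470 CPM, and cold-ischemia replicate 3 had 3.88 CPM and a sum of 1900 CPM. Of 8 testis germ cell markers 4 were in the tables, and their sum was 0.947 to 2.64 CPM in grafts and 0.48 to 1.23 CPM in naive lungs. Acr, a sperm protease gene, was higher by 1.80 ± 0.63 (adjusted p = 0.0417), a call lost with upper-quartile scaling (adjusted p = 0.0597) and total-count scaling (adjusted p = 0.0708 by edgeR), while Prm1, a sperm protamine, and Ldhc, a testis lactate dehydrogenase, had no read in most libraries and at most 0.287 CPM. Only 1 other germ cell marker was tested, and its log2 fold change of -0.84 did not pass. The part of either cell type in the Dnah17 value was not tested.

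The other heavy chains gave estimates on both sides of 0. Dnah8, the other outer arm heavy chain known from sperm, had 9.58, 6.38 and 8.90 CPM in shock grafts, 6.94, 6.85 and 7.80 CPM in cold-ischemia grafts, and 5.84, 6.60 and 5.66 CPM in naive lungs. Its log2 fold change was 0.36 ± 0.18 and did not pass (adjusted p = 0.131 by edgeR), with 1 graft inside the naive range. Without shock replicate 2, Dnah8 and Ift122 also passed as higher. Dnah5, Dnah9 and Dnah11, which serve outer arms of airway cilia, had estimates of 0.06 ± 0.22, -0.02 ± 0.23 and -0.01 ± 0.17. Inner arm genes ran from -0.41 ± 0.35 for Dnah7a to 0.26 ± 0.23 for Dnah10. Of these 9 genes 0 passed, where 41.8% of all genes tested were called.

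Dnah10, the inner arm gene with the highest estimate, had 13.9, 17.1 and 20.1 CPM in shock grafts, 19.3, 22.8 and 13.1 CPM in cold-ischemia grafts, and 20.1, 12.1 and 12.0 CPM in naive lungs. The groups overlapped, with a pair of naive lungs below every graft and the third inside the range of the grafts, and its estimate turned to -0.06 with total-count scaling. Dnah7a, Dnah7b and Dnah7c are near copies of each other. Between 10.4% and 13.3% of the 150-base windows of their transcripts recur exactly in another copy, so the split of reads among them is uncertain.

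Summed over the 15 heavy chain genes, levels differed more within the graft groups than between grafts and naive lungs. The sum was 162, 147 and 219 CPM in shock grafts, 194, 232 and 139 CPM in cold-ischemia grafts, and 209, 179 and 151 CPM in naive lungs, and the graft mean was 102% of the naive mean. The highest graft was cold-ischemia replicate 2 and the next was shock replicate 3, the 2 libraries whose group is in doubt. Across the 25 heavy chain, radial spoke and tektin genes, cold-ischemia replicate 2 was the highest graft for 11 and shock replicate 3 for 10 while cold-ischemia replicate 3 was highest for 0. Of the same 25 genes, shock replicate 2 was the lowest graft for 8 and cold-ischemia replicate 3 for 7. The median coefficient of variation over the 6 grafts was 26.2% for heavy chains and 13.5% for the 14 IFT genes, and over the 3 naive lungs these medians were 15.4% and 11.5%.

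**Figure D3:**
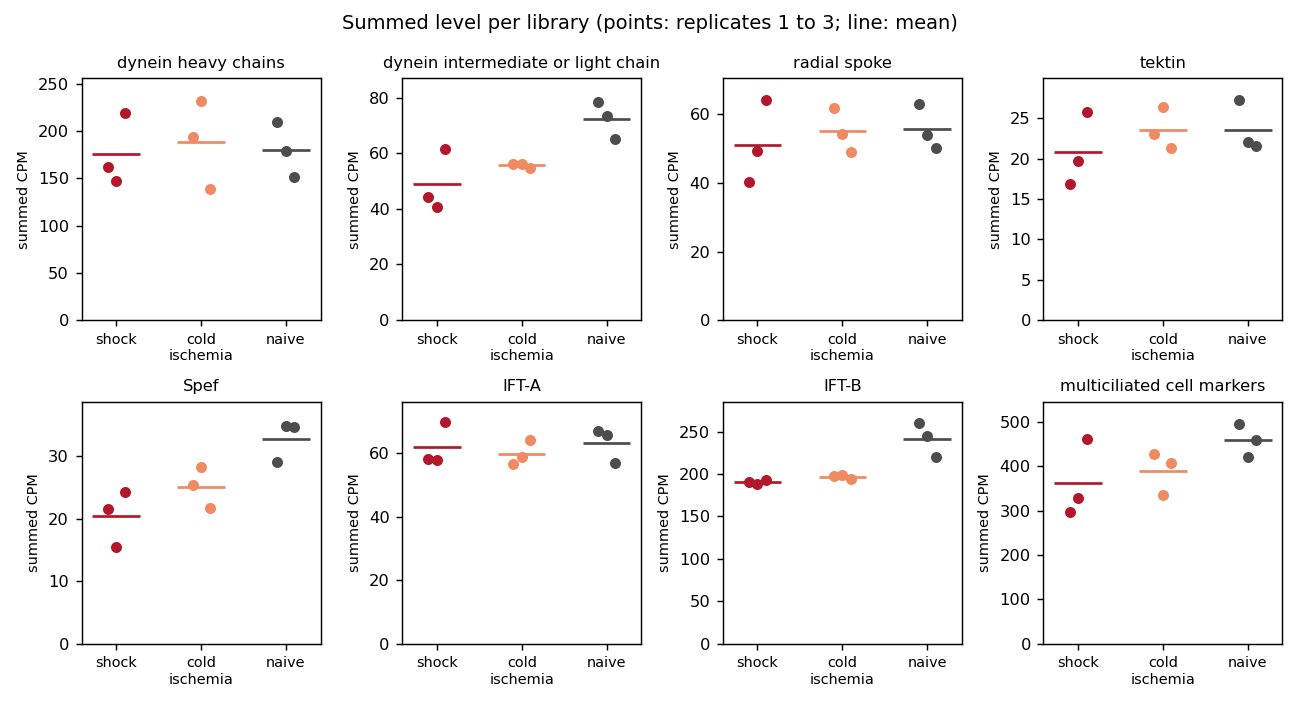
Summed CPM (vertical axes, from 0) of each role group and of the multiciliated cell markers in every library, for shock grafts, cold-ischemia grafts and naive lungs. Points are replicates 1 to 3 from left to right and lines are group means. Heavy chain sums of grafts spread from 139 to 232 CPM around the naive values, whereas all 6 IFT-B sums of grafts, 188 to 199 CPM, lie below the naive sums of 220 to 260 CPM.

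Of the 4 dynein intermediate and light chains, 2 fell and 0 rose, where 19.7% of all genes were called lower. Dnal1, a light chain that binds the outer arm heavy chain motor, had 18.3, 14.3 and 22.9 CPM in shock grafts, 22.1, 20.2 and 21.3 CPM in cold-ischemia grafts, and 34.9, 30.5 and 25.7 CPM in naive lungs. Every graft lay below every naive lung, and the log2 fold change was -0.62 ± 0.16 (adjusted p = 0.00958 by edgeR). Dnal4, a light chain of the outer arm base, had 13.4, 13.9 and 21.1 CPM in shock grafts, 17.8, 14.4 and 19.5 CPM in cold-ischemia grafts, and 25.8, 27.5 and 24.3 CPM in naive lungs. It fell by 0.63 ± 0.17 on the log2 scale (adjusted p = 0.0113 by edgeR), again with no overlap.

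Neither intermediate chain passed. Dnaic1 had 3.18, 1.94 and 4.61 CPM in shock grafts, 4.08, 4.80 and 5.17 CPM in cold-ischemia grafts, and 5.58, 5.25 and 5.77 CPM in naive lungs. Its groups did not overlap, yet its log2 fold change of -0.50 ± 0.24 did not pass (adjusted p = 0.121 by edgeR), though it did with upper-quartile and total-count scaling. Its partner Dnaic2 was estimated at 0.14 ± 0.21 (adjusted p = 0.631 by edgeR), with overlapping groups. Dnal1 shares 384 exon bases with Pnma1 on the opposite strand, and Pnma1 was itself lower, by an estimate of -0.85 ± 0.24 (adjusted p = 0.0164), though at means of only 1.24 CPM in grafts and 2.15 CPM in naive lungs.

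No radial spoke gene and no tektin passed the test, where 41.8% of all genes tested were called. Radial spoke estimates ran from -0.31 ± 0.29 for Rsph10b to 0.22 ± 0.20 for Rsph4a, a spoke head gene whose human counterpart is mutated in ciliary dyskinesia. Rsph4a turned to -0.11 with total-count scaling. Rsph1 had 5.86, 12.2 and 19.0 CPM in shock grafts, 17.5, 11.7 and 15.7 CPM in cold-ischemia grafts, and 19.9, 15.8 and 13.1 CPM in naive lungs, so shock replicate 1 stood well below the other libraries. Its log2 fold change of -0.26 ± 0.30 did not pass (adjusted p = 0.519 by edgeR). Rsph3a and Rsph3b share 52.6% and 52.2% of their 150-base windows with each other, and the level of each is uncertain.

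Among the tektins, Tekt1, Tekt2 and Tekt4 had estimates between -0.06 and 0.05. Tekt3, a tektin of sperm and of low level in lung, had 0.167, 0.0996 and 0.226 CPM in shock grafts, 0.0907, 0.41 and 0.369 CPM in cold-ischemia grafts, and 0.572, 0.679 and 0.379 CPM in naive lungs. Its estimate of -1.27 ± 0.48 missed the threshold (adjusted p = 0.056 by edgeR), and 1 cold-ischemia graft overlapped the naive range.

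Spef1, a microtubule-binding protein of the central pair also called CLAMP, had 14.9, 11.2 and 17.7 CPM in shock grafts, 18.1, 20.0 and 18.2 CPM in cold-ischemia grafts, and 20.4, 26.4 and 29.4 CPM in naive lungs. All grafts lay below all naive lungs, by a narrow gap for cold-ischemia replicate 2, and Spef1 fell by 0.62 ± 0.17 on the log2 scale (adjusted p = 0.0124 by edgeR). Its exons share 92 bases with Cdc25b, a cell cycle phosphatase gene on the opposite strand, which was lower at -0.90 ± 0.13 (adjusted p = 0.00027), with means of 12.9 CPM in grafts and 24.0 CPM in naive lungs. They also share 256 bases with the antisense gene Gm14232 and 20 bases with Cenpb, a centromere protein gene on the same strand, which averaged 337 CPM in grafts and 380 CPM in naive lungs (-0.18 ± 0.12, adjusted p = 0.259 by edgeR, and lower with upper-quartile and total-count scaling). The part of reads from these neighbours in the Spef1 count was not tested. Spef2, a central pair gene needed for ciliary beat, was estimated at -0.28 ± 0.29 with overlapping groups.

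**Figure D4:**
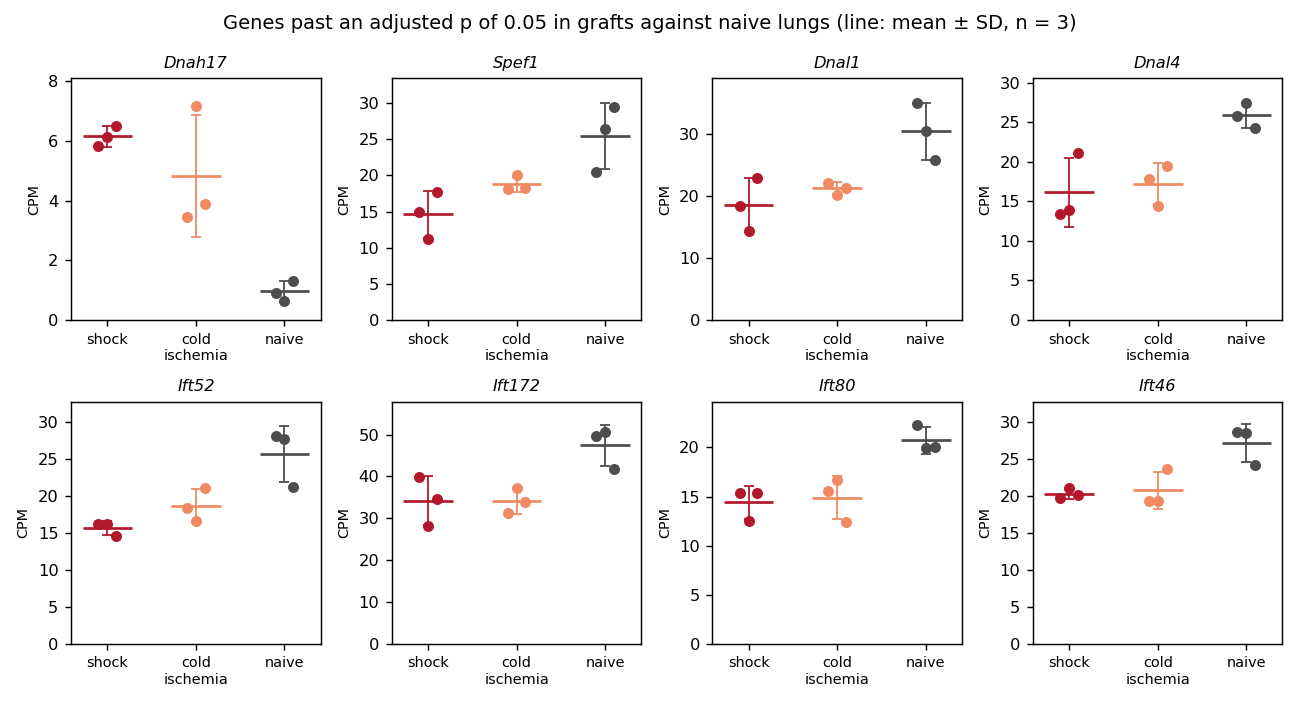
CPM per library (vertical axes, from 0) of the 8 ciliary genes called in grafts against naive lungs, for shock grafts, cold-ischemia grafts and naive lungs. Points are replicates 1 to 3 from left to right, horizontal lines are means and error bars are SD (n = 3). Dnah17 lies above every naive lung in all 6 grafts and the other 7 genes lie below every naive lung.

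IFT-B held 4 of the 7 falls, among its 11 genes, where 19.7% of all genes were called lower. Ift52, a core subunit that joins the parts of the IFT-B complex, had 16.2, 16.2 and 14.6 CPM in shock grafts, 18.4, 16.6 and 21.1 CPM in cold-ischemia grafts, and 28.2, 27.7 and 21.3 CPM in naive lungs. The groups did not overlap, although cold-ischemia replicate 3 came close to naive replicate 3. Ift52 fell by 0.59 ± 0.14 on the log2 scale (adjusted p = 0.00579 by edgeR) and passed in all 19 settings, with log2 fold changes of -0.91 to -0.52.

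Ift172, the largest IFT-B subunit, had 39.8, 28.2 and 34.7 CPM in shock grafts, 31.2, 37.2 and 34.0 CPM in cold-ischemia grafts, and 49.7, 50.7 and 41.8 CPM in naive lungs. It fell by 0.47 ± 0.14 on the log2 scale (adjusted p = 0.017 by edgeR), with every graft below every naive lung. Ift80, whose human counterpart is mutated in skeletal ciliopathy, had 15.4, 12.5 and 15.4 CPM in shock grafts, 15.6, 16.7 and 12.4 CPM in cold-ischemia grafts, and 22.3, 19.9 and 20.0 CPM in naive lungs. This separated the groups clearly, with a log2 fold change of -0.50 ± 0.14 (adjusted p = 0.0151 by edgeR).

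Ift46, a subunit known in algae to carry outer dynein arms into the flagellum, had 19.8, 21.1 and 20.1 CPM in shock grafts, 19.3, 19.3 and 23.7 CPM in cold-ischemia grafts, and 28.7, 28.6 and 24.2 CPM in naive lungs. It fell by 0.40 ± 0.12 on the log2 scale (adjusted p = 0.0233 by edgeR), and passed in 14 of 19 settings. The call was lost with a replicate block, without both libraries whose group is in doubt, and without cold-ischemia replicate 1, naive replicate 1 or naive replicate 2. Ift27, a small GTPase of IFT-B, also showed no overlap, with 6.28, 11.6 and 12.3 CPM in shock grafts, 11.2, 9.02 and 9.88 CPM in cold-ischemia grafts, and 17.9, 13.9 and 12.7 CPM in naive lungs, but did not pass (-0.56 ± 0.22, adjusted p = 0.057 by edgeR). Ift81, a tubulin-binding subunit, was close to the threshold as well, at -0.42 ± 0.16 (adjusted p = 0.0551 by edgeR).

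The remaining IFT-B genes did not move together. Ift57 and Ift74 had estimates of 0.19 ± 0.14 and 0.11 ± 0.21, Ift88 one of -0.08 ± 0.17, Ift20 one of -0.14 ± 0.13 and Ift22 one of -0.34 ± 0.16. None of these passed. The median over the 11 IFT-B genes was -0.40, and their sum reached 80.2% of the naive mean in grafts. Mesothelial markers were lower in grafts for 6 of 6 genes, where 19.7% of all genes tested were called lower. Their sums were 58.3, 30.7 and 32.0 CPM in shock grafts and 27.0, 79.6 and 47.0 CPM in cold-ischemia grafts. Naive lungs had 237 to 297 CPM. The part of mesothelial cells in the IFT values was not tested.

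None of the 3 IFT-A genes passed in all grafts, where 41.8% of all genes tested were called. Ift122, a core subunit, had 25.9, 23.2 and 28.4 CPM in shock grafts, 21.0, 20.7 and 20.3 CPM in cold-ischemia grafts, and 20.6, 18.1 and 18.7 CPM in naive lungs. All shock grafts lay above all naive lungs and cold-ischemia grafts lay at or just above the upper end of the naive range, and over the 6 grafts its log2 fold change of 0.27 ± 0.12 did not pass (adjusted p = 0.0921 by edgeR) and turned to -0.05 with total-count scaling. Ift43 had 15.5, 17.3 and 24.7 CPM in shock grafts, 22.2, 18.7 and 28.3 CPM in cold-ischemia grafts, and 25.9, 23.5 and 20.6 CPM in naive lungs, with overlap and an estimate of -0.15 ± 0.18. Ift140 was estimated at -0.33 ± 0.15 (adjusted p = 0.104 by edgeR).

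**Figure D5:**
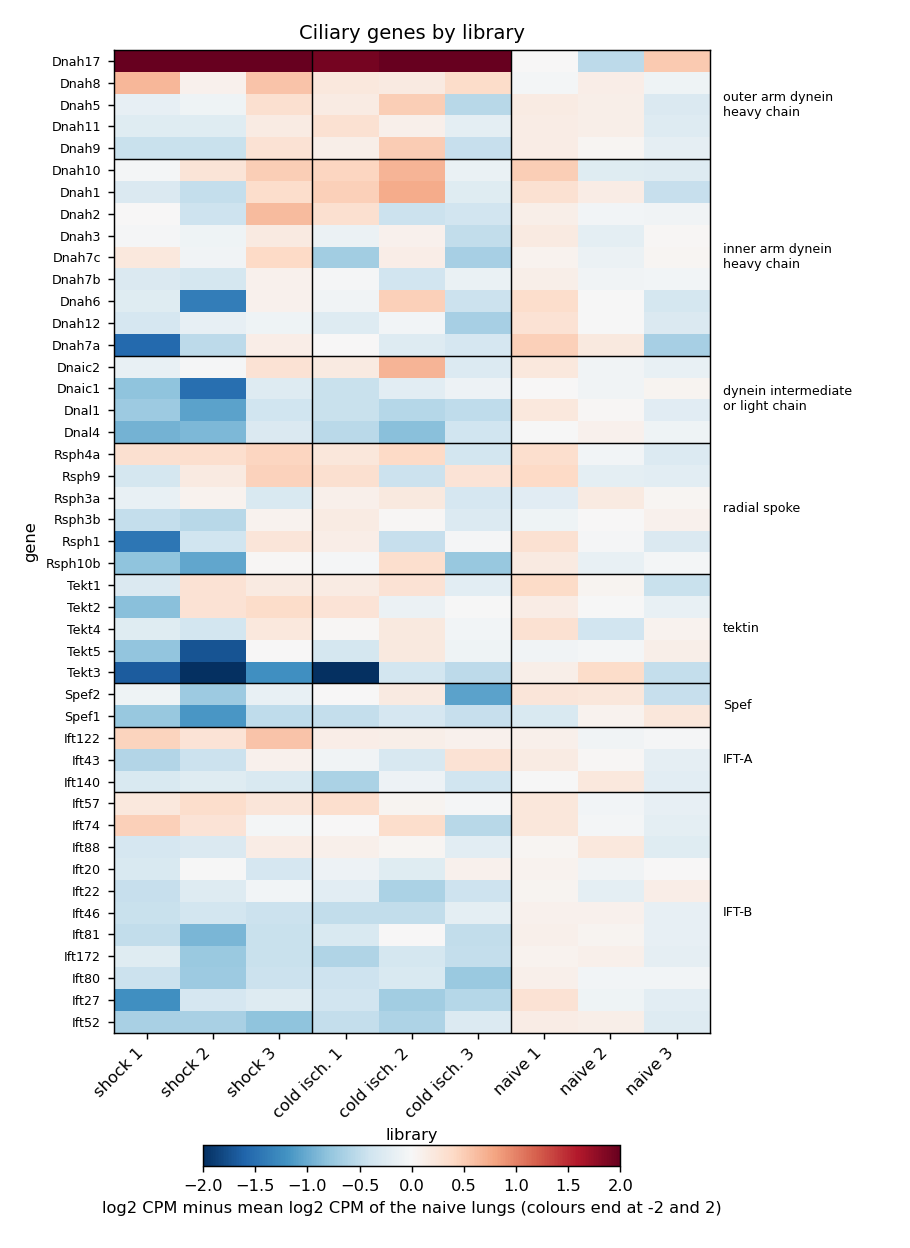
Level of the 45 tested ciliary genes in each library, as log2 CPM minus the mean log2 CPM of the naive lungs (colour, red above and blue below, ending at -2 and 2). Rows are genes by role and columns are shock grafts, cold-ischemia grafts and naive lungs. Dnah17 is red in all 6 grafts, the lower rows of IFT-B are blue in all or nearly all grafts, and heavy chain rows differ between libraries of the same group.

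Larger falls were seen for Ttc30a1, Ttc30b and Ttc21b, IFT genes whose symbols lie outside the rule and which came from lists of the complexes. Of 6 tested IFT-B genes on these lists, 3 fell, and of 4 genes of IFT-A and its cofactor Tulp3, 2 fell. Over all genes tested, 19.7% were called lower. Ttc30b, a subunit of IFT-B, averaged 7.48 ± 1.24 CPM in grafts and 19.8 ± 2.28 CPM in naive lungs, a log2 fold change of -1.40 ± 0.17 (adjusted p = 0.0001 by edgeR). Its near relative Ttc30a1 averaged 1.31 ± 0.331 CPM in grafts and 3.9 ± 0.185 CPM in naive lungs (-1.59 ± 0.22, adjusted p = 0.00027 by edgeR), though reads of close relatives can be split between them. Ttc21b of IFT-A and Tulp3 were lower at -0.95 ± 0.24 and -0.48 ± 0.12. Of 12 IFT motor genes, Kif3c, Kifap3 and Dynlrb1 fell and 9 did not pass, a share near the 19.7% of all genes. Dynlrb1, a dynein light chain, was just under the threshold (-0.31, adjusted p = 0.0495) and was lost with RLE scaling (adjusted p = 0.0678 by edgeR). The kinesin motor gene Kif3a was estimated at -0.02 ± 0.12, but passed as lower with total-count scaling (-0.35, adjusted p = 0.0299 by edgeR).

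Lists of the axoneme and its assembly outside the rule are set beside the 19.7% of all genes called lower. There were 2 falls and no rise among 12 dynein assembly factors (Wdr92 and Ruvbl2). Dynein docking and the nexin-dynein regulatory complex had 1 fall among 14 genes (Tcte1), and the BBSome had 1 among 9 (Bbs2). The central pair list had 1 fall among 9 genes, that of Cep131. This gene is known from centriolar satellites rather than the central pair, and none of the others on that list was called. Medians of these lists ran from -0.24 to -0.03, beside -0.05 over all genes. None of the 12 multiciliated cell markers passed, and their median was -0.33. Foxj1, the master transcription factor of motile cilia, had 34.5, 72.5 and 41.2 CPM in shock grafts, 39.5, 48.1 and 40.4 CPM in cold-ischemia grafts, and 67.2, 61.9 and 66.9 CPM in naive lungs. Shock replicate 2 lay above the naive lungs and the other 5 grafts below them, and the log2 fold change of -0.51 ± 0.20 did not pass (adjusted p = 0.065 by edgeR), but did so with upper-quartile scaling (-0.71, adjusted p = 0.0132) and with total-count scaling (-0.83, adjusted p = 0.00568).

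Regulators of multiciliation moved in both directions, with 1 rise and 3 falls among 11 tested. Over all genes tested, 22.1% were called higher and 19.7% lower. Rfx2, a factor that binds the X-box of ciliary promoters, averaged 41.4 ± 17.3 CPM in grafts and 14.1 ± 0.665 CPM in naive lungs and rose by 1.53 ± 0.27 on the log2 scale (adjusted p = 0.00109 by edgeR). Gmnc, an early regulator of centriole multiplication, averaged 0.831 ± 0.423 CPM in grafts and 2.62 ± 0.512 CPM in naive lungs and fell by 1.72 ± 0.37 (adjusted p = 0.00392 by edgeR). Its relative Mcidas and the transcription factor Myb fell as well, by 1.34 ± 0.46 and 0.99 ± 0.20. The other 7 of 11 tested regulators did not pass, Rfx3 among them at 0.21 ± 0.19, which turned to -0.11 with total-count scaling.

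Genes of the Cfap family are present under older symbols. GENCODE M21 gives 30 of the gene identifiers a Cfap name, and of the 29 tested, 3 were higher and 2 lower in grafts, with a median of -0.05. Both shares were smaller than those over all genes tested, of which 22.1% were called higher and 19.7% lower. Wdr96, named Cfap43 there, had 208, 155 and 163 CPM in shock grafts, 155, 167 and 148 CPM in cold-ischemia grafts, and 68.6, 62.2 and 57.9 CPM in naive lungs, all grafts above all naive lungs. Its log2 fold change was 1.40 ± 0.13 (adjusted p = 2.3e-05 by edgeR). It shares 164 exon bases with Itprip on the same strand. These data hold no count for Itprip, and the part of its reads in the Wdr96 count was not tested. A330021E22Rik (Cfap69) and Ccdc104 (Cfap36) rose by 0.87 ± 0.19 and 0.44 ± 0.13, although Ccdc104 no longer passed with upper-quartile or total-count scaling (0.23 and 0.11 on the log2 scale), while 4933411K20Rik (Cfap97) and Gtl3 (Cfap20) fell by 0.95 ± 0.16 and 0.65 ± 0.13.

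Regulatory sequence was looked up for the set, because Rfx factors and Foxj1 are known to act on promoters of ciliary genes. RefSeq promoters on GRCm38.p6, from 250 bases before to 50 bases after each gene start, were found for 40 of the 47 genes, 43 promoters in all. Only a strict spelling of the full X-box was searched, on both strands: GTTGCC, any pair of letters, GG, any letter and AAC. It was in 0 of the 43 and in 0.298% of all 32851 promoters. X-boxes with another spacing or other letters were not searched, so the promoters may still hold such forms. The core GTTGCC, which is part of the strict spelling, was in 16 of the 43 (37.2%) and in 12.5% of all promoters. The forkhead motif TGTTTAC was in 2 of the 43 (4.65%) and in 3.65% of all. A match describes letters in this window only.

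The promoters below are shown because they belong to the gene that rose (Dnah17), to the only lower gene whose window held the GTTGCC core (Ift172), and to 3 of the 4 genes with a pair of cores that did not pass the test (Dnah10, Ift57 and, at its upstream start, Tekt1). The fourth, Tekt2, holds the pair in 2 overlapping windows and is not printed. Each runs 5′ to 3′ on the strand of the gene. Capitals mark GTTGCC or its reverse complement, and in Dnah17 the forkhead motif TGTTTAC.
Dnah17, chr11:118129170-118129469, minus strand: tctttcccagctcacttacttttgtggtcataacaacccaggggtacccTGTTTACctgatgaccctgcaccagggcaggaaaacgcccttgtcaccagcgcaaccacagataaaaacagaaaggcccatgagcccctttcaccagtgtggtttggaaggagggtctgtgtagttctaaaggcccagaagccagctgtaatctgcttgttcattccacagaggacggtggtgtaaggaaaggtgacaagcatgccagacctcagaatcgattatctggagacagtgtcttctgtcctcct
Ift172, chr5:31291065-31291364, minus strand: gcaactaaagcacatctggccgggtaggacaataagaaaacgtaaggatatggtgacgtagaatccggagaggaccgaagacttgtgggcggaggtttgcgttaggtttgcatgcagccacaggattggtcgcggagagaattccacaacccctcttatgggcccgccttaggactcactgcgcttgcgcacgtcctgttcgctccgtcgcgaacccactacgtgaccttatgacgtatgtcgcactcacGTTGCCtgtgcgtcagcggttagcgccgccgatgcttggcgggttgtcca
Dnah10, chr5:124724835-124725134, plus strand: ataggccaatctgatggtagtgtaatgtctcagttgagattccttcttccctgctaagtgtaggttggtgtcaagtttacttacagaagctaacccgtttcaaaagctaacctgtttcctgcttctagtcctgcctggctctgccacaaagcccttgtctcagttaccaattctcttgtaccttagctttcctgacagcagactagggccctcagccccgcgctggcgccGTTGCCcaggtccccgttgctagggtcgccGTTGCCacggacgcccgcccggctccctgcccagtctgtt
Ift57, chr16:49699044-49699343, plus strand: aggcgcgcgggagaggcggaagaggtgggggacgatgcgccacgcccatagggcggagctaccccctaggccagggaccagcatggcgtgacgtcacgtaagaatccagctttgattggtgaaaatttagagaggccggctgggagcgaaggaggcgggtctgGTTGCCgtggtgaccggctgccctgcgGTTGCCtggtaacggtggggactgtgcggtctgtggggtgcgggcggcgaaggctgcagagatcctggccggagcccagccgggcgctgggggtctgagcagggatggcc
Tekt1, chr11:72361833-72362132, minus strand: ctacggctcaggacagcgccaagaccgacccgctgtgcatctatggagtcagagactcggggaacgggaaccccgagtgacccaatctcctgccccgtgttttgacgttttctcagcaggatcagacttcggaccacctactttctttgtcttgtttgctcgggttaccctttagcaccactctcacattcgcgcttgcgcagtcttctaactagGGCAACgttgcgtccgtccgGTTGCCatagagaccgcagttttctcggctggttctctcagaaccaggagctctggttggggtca
The windows of Dnal1, Dnal4, Spef1, Ift52 and Ift46 held neither the core nor TGTTTAC, and no promoter of Ift80 is shown.

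The graft groups were next set against naive lungs separately; both comparisons share the naive lungs. In shock grafts 2 of the 45 genes were higher and 9 lower, where 39.9% of all genes were called (22.0% higher, 17.9% lower). In cold-ischemia grafts 1 was higher and 3 were lower, where 30.6% of all genes were called (17.5% higher, 13.1% lower). Dnah17 passed in both, at 2.65 ± 0.35 in shock grafts (adjusted p = 0.00025) and 2.31 ± 0.35 in cold-ischemia grafts (adjusted p = 0.00074, both by edgeR). Dnal4, Ift172 and Ift80 were lower in both, but in cold-ischemia grafts their adjusted p-values lay close to the threshold (0.0459, 0.0448 and 0.049 by edgeR). There Dnal4 passed in 12 of 19 settings, Ift172 in 8 and Ift80 in 7, and both Ift172 and Ift80 were lost with RLE scaling, with DESeq2 and with no filter on low counts. In shock grafts Dnal4 passed in 16 of 19 settings, Ift80 in 14 and Ift172 in 10. Ift172 lay close to the threshold there too (adjusted p = 0.0376 by edgeR), and was lost with RLE scaling and with DESeq2. Dnal1, Spef1, Ift46, Ift52, Ift81 and Tekt3 passed as lower, and Ift122 as higher, in shock grafts. Of these, Tekt3 passed in 5 of 19 settings, Ift46 in 10 and Ift81 in 14, while Dnal1, Spef1 and Ift52 passed in all 19. With the grouping of the deposited tables, Dnah17 was higher and 10 genes were lower in shock grafts, where 46.1% of all genes were called. Ift27, Ift43 and Rsph1 were then among the lower genes, and Ift122, Ift81 and Tekt3 no longer passed. In cold-ischemia grafts the deposited grouping gave Dnah17 higher and 6 genes lower (Dnal1, Dnal4, Ift140, Ift172, Ift52 and Ift80), where 34.8% of all genes were called.

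Passing in shock grafts and not in cold-ischemia grafts is no test of a difference. The genes that did so had estimates further from 0 in shock grafts, such as Tekt3 (-1.67, beside -0.87 in cold-ischemia grafts). None of them passed when the graft groups were compared directly. Ift52 was at -0.71 ± 0.16 in shock grafts (adjusted p = 0.00568) and -0.46 ± 0.16 in cold-ischemia grafts (adjusted p = 0.0508, both by edgeR). Spef1 was at -0.80 ± 0.20 in shock grafts (adjusted p = 0.0087) and -0.43 ± 0.20 in cold-ischemia grafts (adjusted p = 0.122, both by edgeR). Ift122 was at 0.43 ± 0.14 in shock grafts (adjusted p = 0.0278) and 0.11 ± 0.14 in cold-ischemia grafts (adjusted p = 0.594, both by edgeR), and the call in shock grafts held in 7 of 19 settings. It was lost with upper-quartile scaling (0.21, adjusted p = 0.235), total-count scaling (0.09, adjusted p = 0.61), the deposited grouping, no filter on low counts, only the libraries of the comparison or a replicate block. It was also lost without both libraries in doubt and without shock replicate 1, shock replicate 3 or any 1 of the naive lungs.

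These counts moved with single libraries. Without naive replicate 1 the genes lower in all grafts were Dnal4, Ift52 and Spef1, and without naive replicate 2 they were Dnal1, Ift52 and Ift80, so the number of genes called in all grafts, 8 with every library, was 4 in either case. In shock grafts the number called, 11 with every library, was 5 without naive replicate 1, 4 without naive replicate 2, and 7 without shock replicate 1 or without shock replicate 2. In cold-ischemia grafts the number called, 4 with every library, was 1 without naive replicate 1, naive replicate 2 or cold-ischemia replicate 1, and 2 without cold-ischemia replicate 2. Dnah17 was the gene left where 1 remained.

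Donor shock was tested by setting shock grafts against cold-ischemia grafts directly. None of the 45 ciliary genes passed with edgeR, and neither did any of the 15834 genes (0.0%). At an unadjusted p under 0.05 there were 1152 genes and 1 ciliary gene, Ift122, at 0.32 ± 0.14 on the log2 scale. Single libraries moved these counts, to 2696 genes and 8 ciliary genes without shock replicate 3, 618 and 2 without shock replicate 2, and 533 and 2 without cold-ischemia replicate 3, again with 0 passing after adjustment. DESeq2 called 6 genes, none of them ciliary. Estimates of the 45 genes ran from -0.80 to 0.54, and no difference of that size passed with 3 libraries per group. The groups did not overlap for 3 of the 45 genes (6.67%), where 10.4% of all genes did not overlap. With the deposited grouping this was so for 8 of the 45 (17.8%), where 23.2% of all genes did not overlap.

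With the grouping of the deposited tables edgeR called 124 genes (0.783%) and again no ciliary gene, with 3075 genes and 5 ciliary genes at an unadjusted p under 0.05. The smallest adjusted p-values were then those of Dnal4, at -0.48 ± 0.13 (adjusted p = 0.0965), and Ift43, at -0.55 ± 0.15 (adjusted p = 0.103). In the authors' deposited table of that comparison, 483 of 22973 genes passed (2.1%), and 0 of the 47 ciliary genes. The authors' deposited table of grafts from shocked donors against naive lungs called 1 ciliary gene higher and 5 lower of 46, where 30.2% of all its genes were called. The authors' deposited table of cold-ischemia grafts against naive lungs called 1 higher and 8 lower of 46, where 29.3% were called. Dnah17 was the higher gene in both, with log2 fold changes of 2.64 and 2.11 in the authors' deposited tables.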

How the data were processed

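Libraries were made from 1 µg of total RNA per lung with NEBNext Ultra II and read as 150 bp pairs on a NovaSeq, per the labels' protocols; strand is not stated. The submitters' processing notes name the genome build mm10 and the tools STAR, HTSeq, STAR-Fusion, edgeR and DESeq2, without versions. The authors deposited 3 tables, one for each pair of groups, with whole read counts per gene without normalization, and the FPKM values, checked to be counts scaled by the deposited gene length and library total. The log2 fold change and p-value columns are the authors' deposited results. Normalized values in 18 per-sample columns were not used.

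The tables were joined by gene identifier. No library repeated another within sampling noise (lowest chi-square per degree of freedom 15.0). The main test was edgeR's quasi-likelihood test (version 4.0.16, R 4.3.3) on the counts, two-sided, with TMM scaling, filterByExpr, 1 mean per group over 9 libraries and Benjamini-Hochberg adjustment over 15834 genes; a gene was called under 0.05. Grafts against naive lungs is the mean of both graft groups minus naive. SE is the log2 fold change divided by the square root of F. The test was checked on simulated data. Alternatives are given under the processing heading; total-count scaling was chosen after seeing the data. Since no label identifies animals, p-values measure only the spread between these samples. Genes were named by rule: the strongest called genes of each role, the largest estimates and the highest FPKM; others, such as Tekt3 or Dnaic1, were singled out after their values were seen. The members and lists were chosen with earlier results of these data known.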

Additional observations from a re-analysis of the deposited data

How the results depend on the processing

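Counts are of ciliary genes called in either direction. For all grafts against naive lungs, 8 were called, 15 with upper-quartile scaling and 17 with total-count scaling; leaving out each library in turn gave 4 to 11. For shock grafts against naive lungs, 11 were called, 18 with total-count scaling, and leaving out a library gave 4 to 10. For cold-ischemia grafts against naive lungs, 4 were called, 2 with RLE scaling, with DESeq2 1.42.0, without the filter on low counts or without both libraries in doubt, 7 with the grouping of the deposited tables or only the libraries of the comparison, 11 with upper-quartile scaling and 13 with total-count scaling, and 1 to 6 without a library. The share of all genes called shifted as well. For all grafts it was 41.8%, then 48.7% with upper-quartile and 54.2% with total-count scaling. For shock grafts it was 39.9%, then 51.1% with total-count scaling. For cold-ischemia grafts it was 30.6%, then 35.1% with upper-quartile and 40.8% with total-count scaling. The cause of these shifts was not tested. Shock grafts against cold-ischemia grafts gave 0 ciliary genes in every setting, 0 to 0 without a library. The sum of the ciliary genes in grafts was 68.0% of naive as deposited FPKM and 87.8% as CPM. The correlation of gene length with log2 fold change across 45 ciliary genes, which share libraries, was 0.33 (Pearson) and -0.06 without the heavy chain genes.

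Correlations of deviations across genes were -0.394 to 0.096 for same-numbered libraries and -0.359 to 0.32 for differently numbered ones. They gave no sign that the numbers pair samples, but deviations from a mean of 3 libraries cannot exclude it. With a replicate block the counts were 7 for all grafts, 5 for shock grafts, 1 for cold-ischemia grafts and 0 between graft groups. For the named genes, 791 values under alternatives kept their side of the threshold, 61 passed only there and 66 no longer passed. Among the 791, 23 estimates turned sign, to values between -0.21 and 0.12, none of them called on either side. They were those of Rsph4a, Dnah10, Ift122, Dnah8, Ift43 and Rsph1, mostly in cold-ischemia grafts.

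The design limits what can be seen. There are 3 libraries per group, batch and group cannot be told apart against naive lungs, and genes under about 1 CPM, such as Tekt3, rest on few reads.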

Other observations

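A pair of antisense genes also carry names of the set. Dnah2os, antisense to the inner arm gene Dnah2, had 34, 16 and 75 reads in shock grafts, 31, 35 and 16 reads in cold-ischemia grafts, and 16, 22 and 9 reads in naive lungs. Its log2 fold change over all grafts was 1.47 ± 0.58 (adjusted p = 0.0617 by edgeR), and in shock grafts alone it passed, at 1.80 ± 0.64 (adjusted p = 0.0442 by edgeR). Those groups overlapped, with 0.797 CPM in shock replicate 2 and 0.995 CPM in naive replicate 2. The highest level, 3.39 CPM, was that of shock replicate 3, whose group is in doubt. Dnah2 itself was estimated at 0.01 ± 0.25. Ift88os, antisense to Ift88, had at most 7 reads in any library.

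Ciliary genes held 0.0474% to 0.0618% of the reads of a graft library and 0.0677% to 0.0867% of the reads of a naive library.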
